A study of Homo sapiens with 6 samples.

Results

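Reference genes are the transcripts that a quantitative RT-PCR experiment divides its targets by, and 10 that are commonly used for this purpose were followed across the 6 arrays of the 1 h time point. The genes were ACTB, GAPDH, B2M, HPRT1, TBP, PPIA, YWHAZ, SDHA, GUSB and TFRC. Every probe set annotated with exactly 1 gene symbol that is one of these was taken, together with the control probe sets that Affymetrix placed along the actin and GAPDH transcripts (names starting with AFFX, with 3', M for the middle, and 5'). This gave 10 of the 11963 genes named on the array, and 25 of its 22277 probe sets, 19 ordinary and 6 AFFX. A further 13 probe sets that name a member beside another gene, 8 with ACTG1 and 5 with PPIAP34, were not used. GAPDH had 6 probe sets, ACTB and YWHAZ 5 each, B2M and TFRC 2 each, and the other 5 genes 1 each. Names that end in x_at, as for the ordinary GAPDH and ACTB probe sets, PPIA and SDHA, mark probe sets that Affymetrix lists as able to match other transcripts, so these values may hold signal of related genes or pseudogenes.

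The RNA came from SH-SY5Y, a human neuroblastoma line of neuronal character, grown in F12-EMEM with foetal bovine serum. In 3 flasks the medium was replaced with medium holding Bf 140 nM, the part of unconjugated bilirubin (UCB) that is free of albumin, and in 3 others with medium holding DMSO 0.6%, the solvent of bilirubin. All cells were collected after 1 h, so both groups share the cell line, the change of medium and the time, and no untreated flask was analysed here. The sources give the replicates as independent biological ones, numbered 1 to 3 in each group, all of 1 cell line. RNA was hybridised to an Affymetrix GeneChip of human genes, and each deposited value is a variance-stabilized log2 intensity of 1 probe set on 1 array. A difference of 1 on these values is read as 2-fold, which assumes base 2, as the normalization method and the range of the values imply.

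A reference gene is chosen because its RNA is thought to stay level whatever is done to the cells, so that differences in the amount or quality of RNA between tubes cancel in the ratio. ACTB encodes the cytoskeletal protein beta-actin and GAPDH a glycolytic enzyme, and qRT-PCR values in the study were divided by these genes. The other members come from unrelated pathways, which is the usual advice for a reference panel. PPIA is the folding enzyme cyclophilin A, TBP the TATA-binding protein of basal transcription, HPRT1 an enzyme of purine salvage and SDHA the flavoprotein subunit of mitochondrial complex II. B2M is the light chain of MHC class I, GUSB the lysosomal beta-glucuronidase, TFRC the transferrin receptor of iron uptake and YWHAZ the 14-3-3 zeta adaptor protein. Affymetrix labelling primes from the poly(A) tail, so probe sets near the 5' end of a transcript depend more on intact RNA and long copies than those near the 3' end.

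The cell type markers were read first. Of 9 noradrenergic neuroblastoma markers, 7 had a mean level above the upper quartile of all probe sets, among them PHOX2A, GATA3, ISL1 and DBH, while TH and HAND2 were below the median. Both measured glial markers and all 4 blood cell markers were below the median, and 2 of 6 mesenchymal markers (COL3A1 and FN1) lay above the upper quartile. The array medians ran from 7.73 to 7.97, and the 2 arrays of replicate 3 had the lowest, 7.78 with Bf and 7.73 with DMSO. These 2 arrays stood apart from the other 4 in both groups, so the spread of each member is given below with and without the part that follows the replicate number.

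On the values as deposited, the lowest spread over the 6 arrays was that of an ordinary GAPDH probe set. It is 212581_x_at, which read 14.24, 14.16 and 14.29 in the Bf arrays of replicates 1, 2 and 3, and 14.27, 14.12 and 14.21 in the DMSO arrays, with an SD of 0.064 over all 6. The GAPDH probe set 213453_x_at had the same SD of 0.064, and 217398_x_at had 0.080. PPIA came next, at 14.42, 14.30 and 14.46 with Bf and at 14.48, 14.30 and 14.46 with DMSO (SD 0.082). In GAPDH 212581_x_at and PPIA the replicate 2 array was the lowest of each group and the groups overlapped, and all 6 GAPDH values lay within 0.16 of each other. These values are near the top of the scale, where the highest value of any probe set was as low as 14.58 on 1 array, and the part of signal saturation in their evenness was not tested.

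TBP, SDHA and HPRT1 were next in order. TBP 203135_at gave 9.84, 9.66 and 9.66 with Bf and 9.65, 9.67 and 9.48 with DMSO, an SD of 0.11. SDHA 201093_x_at gave 10.85, 10.65 and 10.44 with Bf and 10.70, 10.70 and 10.67 with DMSO (SD 0.13). HPRT1 202854_at gave 11.49, 11.52 and 11.44 with Bf and 11.31, 11.56 and 11.78 with DMSO (SD 0.16). Each of these transcripts had 1 probe set only. The high and low arrays differed from gene to gene, with DMSO replicate 3 lowest for TBP and highest for HPRT1, and Bf replicate 3 lowest for SDHA. The replicate number held 47.6% of the variance of TBP, 54.9% of SDHA and 39% of HPRT1, the lowest shares among the members. With 1 Bf and 1 DMSO array to a number, such a share is well above 0 even without a replicate effect. None of these genes passed the F test for replicate number given below.

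**Figure D1:**
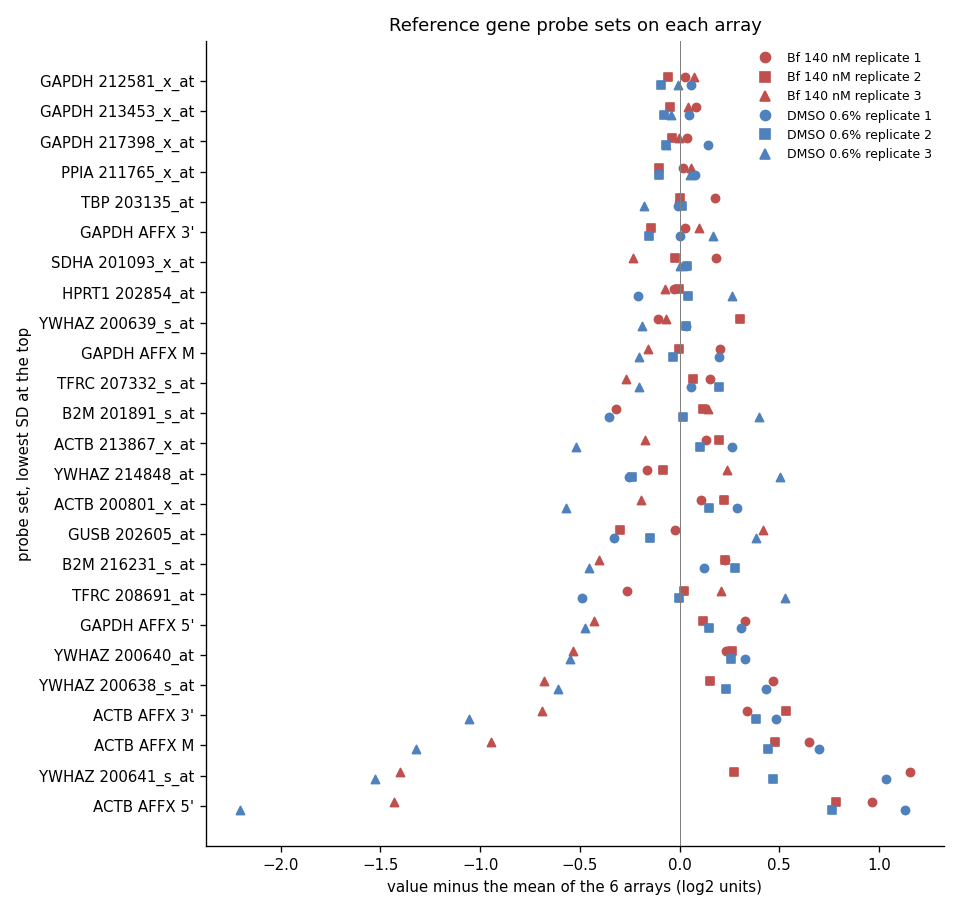
Each row is 1 of the 25 probe sets, ordered by SD with the lowest at the top, and each point is 1 array (red Bf 140 nM, blue DMSO 0.6%, shape by replicate number), plotted as its log2 value minus the mean of the 6 arrays. The replicate 3 triangles of both groups move away from the other 4 arrays towards the bottom of the plot, to the left for ACTB and most YWHAZ probe sets and to the right for GUSB.

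B2M, GUSB, ACTB, TFRC and YWHAZ had wider spreads. The brightest ACTB probe set, 200801_x_at, read 14.43, 14.55 and 14.13 with Bf and 14.61, 14.47 and 13.75 with DMSO, for an SD of 0.33. Both replicate 3 arrays were the lowest of their group, and DMSO replicate 3 was the lowest of all 6. GUSB 202605_at went the other way, at 11.06, 10.79 and 11.50 with Bf and at 10.75, 10.94 and 11.47 with DMSO (SD 0.33). For YWHAZ 200640_at the 4 arrays of replicates 1 and 2 lay between 12.86 and 12.96, and those of replicate 3 at 12.09 with Bf and 12.08 with DMSO (SD 0.42). The largest spread of an ordinary probe set was that of YWHAZ 200641_s_at, at 12.98, 12.09 and 10.42 with Bf and 12.85, 12.29 and 10.29 with DMSO (SD 1.18). In that probe set each replicate number had a level of its own in both groups, and the groups lay within 0.2 of each other at every number.

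Set against the whole array, the members were not an especially quiet group. Their median SD was 0.30, with a range of 0.064 to 1.44. The median was 0.15 over all 22221 probe sets tested and 0.22 over the brightest 10% of them. ACTB, GAPDH and YWHAZ weigh most in the members' median through their many probe sets. By the brightest ordinary probe set of each gene, GAPDH, PPIA, TBP, SDHA and HPRT1 lay below 0.22. B2M, ACTB, GUSB, TFRC and YWHAZ lay above it. Most of the member probe sets were bright, with a median level at the 97.7th percentile and a lowest of 57.4, so probe sets of like level are the closer comparison. With the probe sets divided by level into 10 groups of equal size, GAPDH 212581_x_at had 2.21% of its group with a lower SD, PPIA 5.49%, TBP 15.4%, SDHA 19.0% and HPRT1 28.6%. The same share was 73.7% for ACTB 200801_x_at, 74.3% for GUSB and 87.7% for YWHAZ 200640_at. In all, 14 of the 25 had an SD above the median of their group. The probe sets of one gene share its RNA and are not independent of each other, and these shares describe the 6 arrays without a test.

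**Figure D2:**
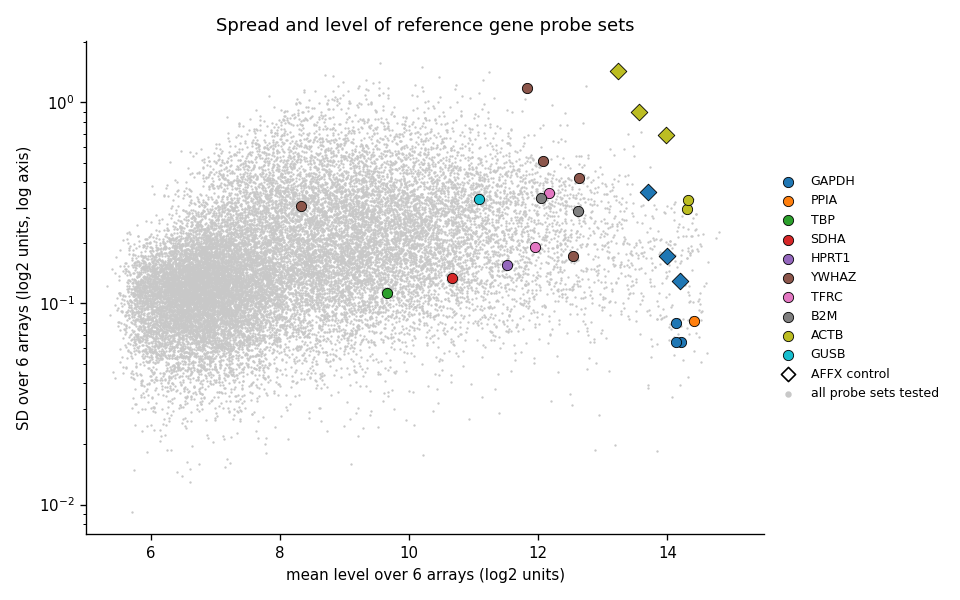
The SD over the 6 arrays (log axis) is plotted against the mean level of each probe set, both in log2 units, with all 22221 probe sets tested in grey, ordinary member probe sets as coloured circles and AFFX controls as diamonds. The ordinary GAPDH probe sets and PPIA lie towards the low edge of the cloud at their level, and the 3 actin controls and YWHAZ 200641_s_at at its upper edge.

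The replicate number accounted for most of this spread. It held a median of 90.9% of the variance of a member probe set over the 6 arrays, against 76.5% over all probe sets. The median SD of 0.30 was 0.19 without DMSO replicate 3 and 0.092 without both replicate 3 arrays. In the limma F test for replicate number, with the treatment in the model, 16 of the 25 passed at an adjusted p under 0.10, or 64.0%, where 44.6% of all probe sets passed. Among the brightest 10% of probe sets the share was 68.9%, and of the 22 members there 15 passed, so the members' share was close to that of equally bright probe sets. Replicate 3 was the lower one in 12 of the 25 (48.0%), where 27.3% of all probe sets and 20.3% of the brightest 10% passed in that direction. It was the higher one in 4, or 16%, where 17.3% of all and 48.6% of the brightest 10% did. The median replicate 3 difference was -0.19 over the members and 0.20 over the brightest 10%. The 12 are not independent, since they hold all 5 ACTB probe sets and several of YWHAZ and GAPDH. Of the brightest ordinary probe sets by gene, ACTB (-0.57) and YWHAZ (-0.81) passed with replicate 3 lower. B2M (0.40), TFRC (0.55) and GUSB (0.60) passed with it higher. For B2M and TFRC replicate 2 also lay above replicate 1, by 0.41 and 0.38, so their calls do not rest on replicate 3 alone. Of the 21 measured cell type markers 11 also passed for replicate number, 8 of 9 noradrenergic and 3 of 6 mesenchymal ones, among them COL3A1 (-1.04), PHOX2A (-0.61), GATA3 (0.64) and ISL1 (0.69). Their part in the members' values was not tested. The 9 member probe sets that did not pass were the 3 ordinary GAPDH probe sets, the AFFX GAPDH 3' probe set, PPIA, TBP, SDHA, HPRT1 and YWHAZ 200639_s_at.

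The direction of these calls holds for the members, although the balance over the array depends on the scaling. The median of all probe sets was -0.07 on replicate 3 relative to the mean of replicates 1 and 2, and became 0.13 when the array medians were made equal and 0.02 after quantile normalization. The share of lower among all calls was 61.2%, 30.5% with equal medians and 47.8% after quantile normalization. Among the members it was 12 lower and 4 higher, 10 and 8 with equal medians, and 13 and 4 after quantile normalization. Each of the 16 kept its direction under both scalings, and 14 of them passed with equal medians and 16 after quantile normalization. The 9 that did not pass have no direction of their own, since each of them had another sign under 1 or both scalings, as GAPDH 212581_x_at with 0.05, 0.25 and -0.15.

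By gene, the actin controls led. On replicate 3 all 5 ACTB probe sets were lower, with differences of -2.73 to -0.52 from the mean of replicates 1 and 2, and the AFFX actin 5' probe set at -2.73 had an adjusted p of 4.3e-07 in the limma F test. Its values were 14.20, 14.01 and 11.80 with Bf and 14.36, 13.99 and 11.03 with DMSO, the lowest being DMSO replicate 3. The brightest ACTB probe set differed by -0.57 (adjusted p = 0.0040, limma F test) and GUSB by 0.60 (adjusted p = 0.0018, limma F test). YWHAZ 200641_s_at differed by -2.20 (adjusted p = 1.7e-07, limma F test) and YWHAZ 200640_at by -0.81 (adjusted p = 5.2e-05, limma F test). The lower levels were thus found in a 14-3-3 gene as well as in actin. These p-values are of any difference among the replicate numbers, not of the replicate 3 difference beside them. Without both replicate 3 arrays, 4 of the 25 still passed for replicate number, where 12.5% of all probe sets did. These were YWHAZ 200641_s_at, B2M 201891_s_at, TFRC 208691_at and the AFFX actin 5' probe set.

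In B2M, TFRC and YWHAZ the probe sets of 1 gene did not move together on replicate 3. For B2M, 201891_s_at read 12.30, 12.74 and 12.76 with Bf and 12.26, 12.63 and 13.01 with DMSO, a difference of 0.40 on replicate 3. Its other probe set, 216231_s_at, read 12.28, 12.27 and 11.64 with Bf and 12.17, 12.32 and 11.59 with DMSO, a difference of -0.64. For TFRC, 208691_at differed by 0.55 and 207332_s_at by -0.35. Both probe sets of each gene passed the F test and ran in opposite directions, 1.05 apart for B2M and 0.91 apart for TFRC. Within YWHAZ, 214848_at was higher (0.56) on replicate 3 and the other 3 that passed were lower, a gap of 2.75 from end to end and a 6.89-fold ratio between the largest and the smallest SD. The spread of GAPDH and ACTB also depended on the probe set, with SD ratios of 5.59 and 4.86 between their probe sets and a gap of 0.88 on replicate 3 within GAPDH. In these 2 genes the larger SDs were those of AFFX controls. The ordinary ACTB probe sets had SDs of 0.30 and 0.33, and the ordinary GAPDH ones 0.064 to 0.080. A statement on B2M, TFRC or YWHAZ therefore depends on which probe set is read. One on ACTB or GAPDH depends on whether an AFFX control is read. Below, the brightest ordinary probe set stands for each gene.

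The AFFX controls show how the change ran along 2 of the transcripts. The 3' value minus the 5' value of actin was 0.12, 0.50 and 1.5 with Bf and 0.11, 0.37 and 1.90 with DMSO for replicates 1, 2 and 3. The same difference for GAPDH was 0.21, 0.25 and 1.03 with Bf and 0.20, 0.21 and 1.15 with DMSO. In both genes the 2 replicate 3 arrays had the widest gap in their group. For actin the middle and 3' probe sets were also lower on replicate 3, at -1.70 and -1.31. For GAPDH the 5' probe set differed by -0.68 and the middle one by -0.27, both past the test, whereas the 3' probe set read 14.23, 14.06 and 14.30 with Bf and 14.20, 14.05 and 14.37 with DMSO and did not pass (adjusted p = 0.11, limma F test).

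The gap was also wider on replicate 3 for dap, a bacterial transcript among the platform controls, where the 3' value minus the 5' value averaged 2.08, 1.94 and 3.10 on replicates 1, 2 and 3. The part of RNA integrity or labelling in the replicate 3 values of the members was not tested. Between the treatments the gap of the members differed by -0.08 for actin (exact permutation test, two-sided, p = 0.90) and by -0.02 for GAPDH (exact permutation test, p = 1.0), with 0.1 as the smallest p that 3 arrays against 3 can give. Leaving out 1 array moved the first difference from -0.48 without Bf replicate 3 to 0.47 without DMSO replicate 3, and the second from -0.29 to 0.29, so neither has a settled sign.

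**Figure D3:**
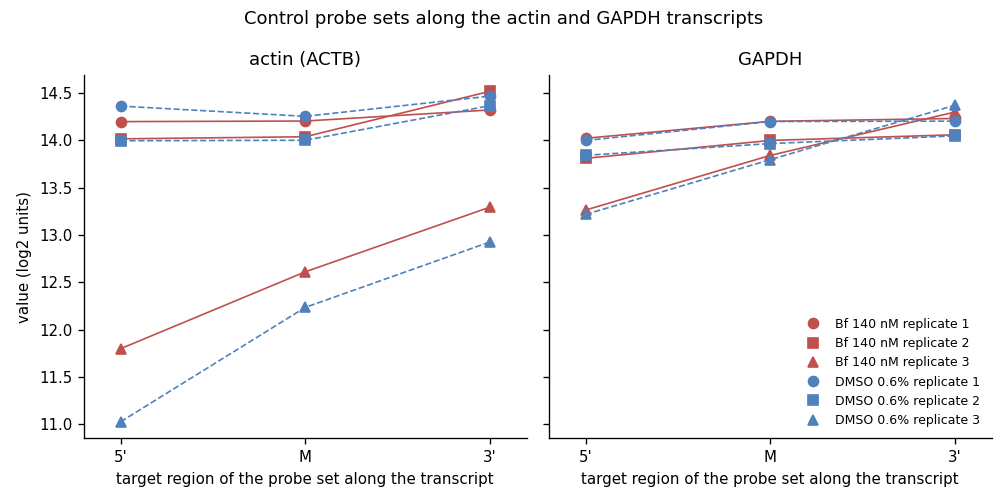
The log2 values of the AFFX control probe sets are plotted by their target region on actin (left) and GAPDH (right), 1 line per array, with solid red lines for Bf 140 nM, dashed blue lines for DMSO 0.6% and the shape for the replicate number. The 4 arrays of replicates 1 and 2 rise by at most 0.50 from the 5' to the 3' probe set, while both replicate 3 arrays drop towards the 5' end, to 11.80 and 11.03 for actin.

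The question for a reference gene is whether the treatment moves it, and none of the members passed for Bf minus DMSO. In limma without a block, 0 of the 25 had an adjusted p under 0.10, and of all probe sets the share was 0.0%. At an unadjusted p under 0.05 it was 0 of 25, where 0.099% of all probe sets passed. With the replicate number as a block, which compares the treated and control array of each number, it was again 0 of 25, against 0.0% of all probe sets at the adjusted threshold and 1.22% at the unadjusted one. No member had groups that did not overlap, as 2.65% of all probe sets did. In bulk RNA, fewer cells with a transcript and less of it per cell cannot be told apart. The size of the mean difference had a median of 0.038 over the members and 0.048 over all probe sets.

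A p that misses the threshold does not show that the genes are level, and the 95% intervals say how large a difference the arrays leave possible. With the replicate block the intervals reached between 0.18 and 0.31 on either side of the estimate, with a median of 0.20, while without it they reached between 0.21 and 2.53. For GAPDH 212581_x_at Bf minus DMSO was 0.03 with a blocked interval from -0.15 to 0.21, and for PPIA -0.02 from -0.20 to 0.16. For ACTB 200801_x_at it was 0.09 from -0.14 to 0.32. TBP had the largest estimate among the brightest probe sets of the genes, 0.12 from -0.07 to 0.30, and the AFFX actin 5' probe set the largest of all 25, 0.21 from -0.10 to 0.52.

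Within the replicate numbers, the difference often changed sign from one number to the next. ACTB 200801_x_at differed by -0.18, 0.08 and 0.38 in replicates 1, 2 and 3, and TFRC 208691_at by 0.23, 0.02 and -0.32. HPRT1 differed by 0.18, -0.04 and -0.34, and SDHA by 0.15, -0.06 and -0.24. In these 4 genes replicates 1 and 3 thus had opposite signs, as they also had in the GAPDH, PPIA, YWHAZ and B2M probe sets given next. GAPDH 212581_x_at differed by -0.03, 0.04 and 0.08, PPIA by -0.06, -0.001 and 0.005, and YWHAZ 200640_at by -0.10, 0.01 and 0.01. GUSB differed by 0.31, -0.15 and 0.03, B2M 201891_s_at by 0.04, 0.10 and -0.25, and TBP by 0.19, -0.01 and 0.18. YWHAZ 200640_at combined a wide spread over the arrays with small differences inside each number, whereas for ACTB both were wide. Over all 25, the size of the difference had a median of 0.11 in replicate 1, 0.044 in replicate 2 and 0.12 in replicate 3, against 0.10, 0.072 and 0.12 over all probe sets.

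**Figure D4:**
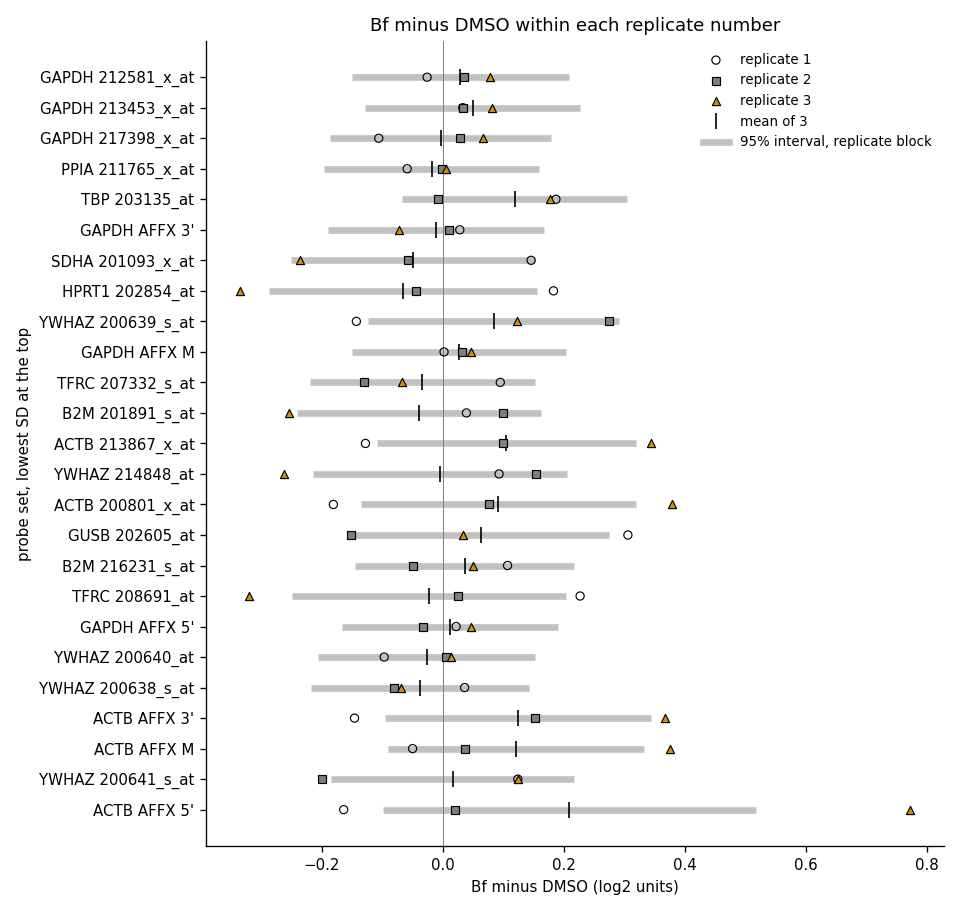
Bf minus DMSO in log2 units for each of the 25 probe sets (same order as by SD), with 1 symbol per replicate number, a black tick at the mean of the 3 and a grey bar for the 95% interval with the replicate block. All grey bars cross 0, and the widest differences are in replicate 3, up to 0.77 for the AFFX actin 5' probe set.

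Stability relative to the other members was then measured with M, the mean SD over the 6 arrays of the log2 difference between a gene and each of the other 9, where a low value is a steady gene. GAPDH had the lowest M at 0.257, followed by PPIA at 0.262, TBP at 0.276, HPRT1 at 0.278 and SDHA at 0.283. B2M had 0.355, GUSB 0.397, TFRC 0.399, ACTB 0.421 and YWHAZ 0.498. The first 5 lay within 0.03 of each other, so their order is not firm. The steadiest pair was GAPDH with PPIA, whose log2 difference had an SD of 0.036, and the least steady was YWHAZ with TFRC at 0.74. The difference between ACTB and GAPDH, the pair used in the study, was 0.18, 0.39 and -0.16 with Bf and 0.34, 0.34 and -0.46 with DMSO, an SD of 0.34 with both replicate 3 arrays lowest in their group.

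The ranking changed once the mean of each replicate number was taken out. Then M fell in a range from 0.122 for PPIA and 0.127 for GAPDH to 0.167 for GUSB and 0.236 for ACTB, and YWHAZ moved from the last place to the third at 0.130. ACTB was thus last of the 10 within replicate numbers and next to last over all 6 arrays. These places rested on the replicate 3 arrays. Without both of them YWHAZ had the lowest M (0.141), ACTB was seventh (0.165), and TFRC (0.247) and B2M (0.254) were last, with GAPDH at 0.144. Without DMSO replicate 3 alone, TBP was first (0.210), GAPDH had 0.216 and ACTB sixth (0.277). When the probe sets of each gene were averaged instead of taking the brightest, GAPDH stayed first (0.211), GUSB (0.415) and YWHAZ (0.397) were last, ACTB was eighth (0.348), and B2M and TFRC had 0.232 and 0.237.

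As a reference value, the mean of ACTB and GAPDH was 14.34, 14.35 and 14.21 with Bf and 14.44, 14.30 and 13.98 with DMSO. It had an SD of 0.16 over the 6 arrays, and its lowest array was DMSO replicate 3. Bf minus DMSO of this mean was 0.06 (exact permutation test, two-sided, p = 0.80), with -0.10, 0.06 and 0.23 in replicates 1, 2 and 3. Without DMSO replicate 3 it was -0.07. The mean of all 10 genes was 12.34, 12.34 and 12.31 with Bf and 12.27, 12.35 and 12.36 with DMSO, with an SD of 0.034. A mean of genes that differ in both directions on replicate 3 can have a low SD because those differences cancel, so this value is not a measure of how steady its members were. Had the pair been read from the AFFX 5' probe sets, the SD would have been 0.90.

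**Figure D5:**
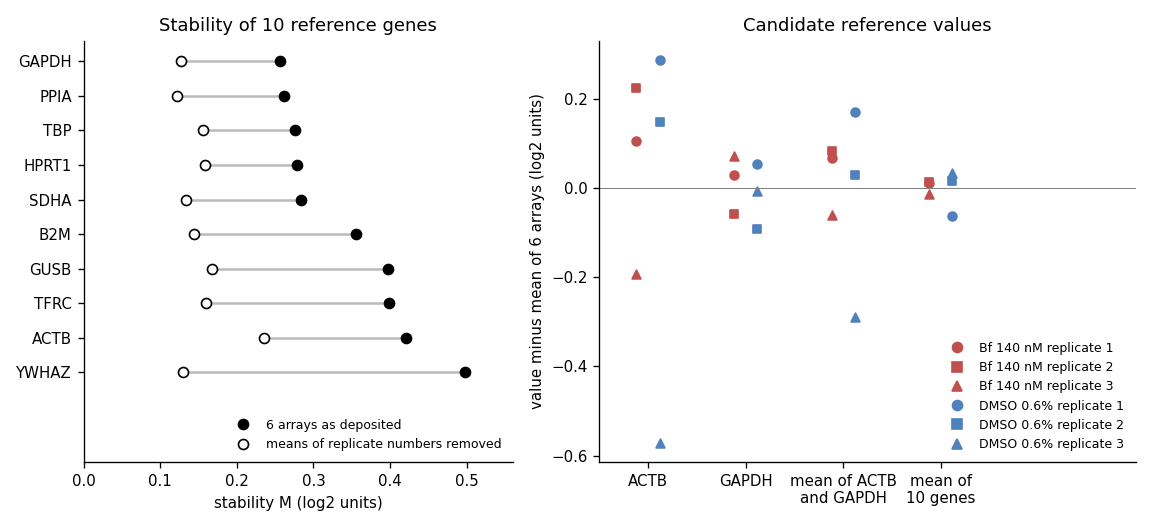
Left, the stability measure M of the 10 genes in log2 units, over the 6 arrays as deposited (filled) and after the mean of each replicate number was removed (open). Right, the value of ACTB, GAPDH, their mean and the mean of 10 genes on each array minus its mean over the 6 arrays, where DMSO replicate 3 lies lowest for ACTB and for the mean of ACTB and GAPDH.

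The choice of reference carries over to the targets. The 7 genes that the study followed by qRT-PCR act in the endoplasmic reticulum stress response or are induced with it: DDIT3, HSPA5, XBP1, HERPUD1, TRIB3, FAM129A (annotated as NIBAN1) and SLC7A11. Before any reference, Bf minus DMSO of the brightest probe sets had a median of 0.004 and a range of -0.03 to 0.14. Relative to the mean of ACTB and GAPDH the median was -0.06 with a range of -0.09 to 0.08, and relative to the mean of 10 genes it was -0.004 with a range of -0.04 to 0.13. Exact permutation tests (two-sided) of single targets gave p from 0.30 to 1.0 without a reference and from 0.60 to 1.0 relative to ACTB and GAPDH, where 3 arrays against 3 cannot go below 0.1, so these tests could not have passed any target at 0.05.

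Subtracting ACTB and GAPDH widened the spread of the targets on these arrays. These are array values of 1 h that were already normalized, whereas the study's qRT-PCR used RNA of cells collected at a later time. The widening therefore does not show what this pair did in that qRT-PCR. The paper states that the expression of both genes was not modified under its conditions, with the data not shown. The median SD of the targets over the 6 arrays was 0.22 before and 0.33 after. It was 0.46 relative to ACTB alone, 0.27 relative to GAPDH alone and 0.20 relative to the 10 genes. Within replicate numbers the median difference of the targets was 0.20, 0.005 and -0.17 before, and 0.31, -0.05 and -0.40 relative to ACTB and GAPDH. DDIT3, a transcription factor of the stress response, had 0.14 before and 0.08 after, HSPA5, the chaperone BiP, had 0.02 and -0.04, and XBP1, another factor of the response, 0.004 and -0.06. The median relative to ACTB and GAPDH lost its sign when single arrays were left out, at 0.16 without DMSO replicate 3, 0.02 without Bf replicate 1 and 0.02 without DMSO replicate 2.

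Genes that work with the members were read from a list of 46, of which 38 had a probe set of their own. None passed for Bf minus DMSO, with a median difference of -0.01 and a range of -0.16 to 0.15. For replicate number 24 passed, or 63.2%, against 44.6% of all probe sets and 68.9% of the brightest 10%, with replicate 3 below the mean of replicates 1 and 2 in 15 and above it in 9. Among the actin-binding genes, PFN1 (profilin) differed by -1.0 and TMSB4X (thymosin beta 4) by -0.55 on replicate 3, lower as ACTB was, whereas CFL1 (cofilin) had a value of 0.04 and did not pass. Of the 6 other genes of glycolysis, 5 passed, from PKM (pyruvate kinase) at -1.47 to PGAM1 at 0.32, and LDHA, at 0.07, did not. ALDOA (aldolase, -0.25) passed with its highest values on replicate 1, at 12.81 with Bf and 12.74 with DMSO, while replicates 2 and 3 were in no fixed order. The sign of ENO1 (enolase, -0.19) turned with equal array medians, at 0.003, while the other 23 calls kept theirs under both scalings. Of the 14-3-3 genes, YWHAE (-1.28) and YWHAH (-1.05) were lower and YWHAB (1.02), YWHAQ (0.31) and SFN (0.48) higher.

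The partners of the other members were as mixed. Of 5 MHC class I heavy chains, which pair with B2M, 4 were lower on replicate 3, among them HLA-C at -0.56, while HLA-E did not pass, and since these genes are near-identical in sequence the values are uncertain by gene. The cyclophilins PPIB, PPID and PPIF did not pass, with an SD of 0.14 to 0.15, nor did SDHC and SDHD, the complex II partners of SDHA, or HEXA, a lysosomal enzyme like GUSB. Of the purine genes beside HPRT1, PPAT (-0.35) and ADK (-0.27) were lower on replicate 3, and APRT passed at 0.03 with its lowest values on replicate 2. Of the 7 genes of the TBP complexes, 3 were higher on replicate 3, led by TAF2 at 0.92, and 1 was lower, TAF1 at -0.41. Among the genes of iron handling beside TFRC, FTL (ferritin light chain) was higher (0.39) on replicate 3, and TF and ACO1 did not pass.

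Other genes in use as references were read from their brightest probe set. Of 31 listed, 21 had a probe set of their own, and their SD had a median of 0.21 and a range of 0.057 to 0.63. The steadiest on the values as deposited were EEF1A1 (translation elongation, SD 0.057), RPS18 (ribosome, 0.092) and CHMP2A (endosomal sorting, 0.11). EEF1A1 and RPS18 were also near the top of the scale, at 14.62 and 14.53. The least steady were IPO8 (nuclear import, 0.63), TUBB (tubulin, 0.48) and REEP5 (0.46). None of the 21 passed for Bf minus DMSO, and for replicate number 8 passed with replicate 3 below the mean of replicates 1 and 2, such as TUBB at -0.89, and 5 with it above, such as REEP5 at 0.86. These 13 are 61.9% of the 21, against 44.6% of all probe sets and 68.9% of the brightest 10%. Of the 13 calls, PSMC4 and PSMB2 turned from lower to higher with equal array medians.

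The genes whose values over the 6 arrays ran most like those of ACTB 200801_x_at were MTA1, AVPR1A and ATG9A (Pearson's r of 0.997, 0.997 and 0.996, as a description over 6 arrays), and 12.9% of named probe sets had an r over 0.9 with it. All of these share the same RNA samples, and MTA1 (-0.48), AVPR1A (-0.305) and ATG9A (-0.17) were lower on replicate 3, as ACTB was. For GAPDH 212581_x_at the nearest were REX1BD, BMP7 and RANBP3 (r of 0.994, 0.990 and 0.986), and 0.624% of named probe sets had an r over 0.9.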

How the data were processed

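Total RNA of 3 flasks with Bf 140 nM and 3 with DMSO 0.6%, collected after 1 h, was labelled and hybridised to 1 array each. The authors took cell intensities and applied variance-stabilizing normalization with R 2.5.0. The values they deposited are log2 intensities, with a column for each array. The sources used here do not give how probes were summarized or which arrays were normalized together, nor the base, which was taken from the method. No detection calls or spot signals were used, so the authors' filter on Present calls was not repeated, and the precision is set by the number of arrays. The platform annotation supplied the gene names. It gives 1 symbol to 19070 probe sets and several to 1043, and 2164 are not named here. No member symbol needed an update, and no genome build is named, so no coordinates are given.

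Bf minus DMSO was tested with lmFit and eBayes in limma 3.58.1 (R 4.3.3) on 22221 probe sets, 56 other platform controls being left out, with no filter and Benjamini-Hochberg adjustment over all of them, at an adjusted p under 0.10. The replicate number was tested with the F test of the same tool, with treatment in the model. The fits were tested on simulated data. Single values were compared with exact two-sided permutation tests over 20 arrangements. These tests do not use the replicate number, so differences between numbers count as spread in them. SD, M and likeness of pattern are descriptions. All members are named or counted, with the 3 steadiest and 3 least steady other references and the partner genes by role. The members and lists were chosen with earlier results of these data known.

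No source ties a replicate number to a day or batch, so that equal numbers pair the arrays is an assumption. Deviations from the group mean correlated between the Bf and the DMSO array of a number at 0.725, 0.783 and 0.880. Raw values correlated at 0.996, 0.998 and 0.995. Arrays of differing numbers were not compared in either measure, so neither can show that equal numbers match better than unequal ones. The sample descriptions give both arrays of replicates 1, 2 and 3 a shared number, 3, 5 and 6. The study's methods name no pairing, so the fit without the block leads and the blocked one is an alternative. Other alternatives were quantile normalization, equal array medians, leaving out arrays, a filter at the median level, trend and robust eBayes, a threshold of 0.05, leaving out the AFFX probe sets, and other probe sets of a gene.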

Additional observations from a re-analysis of the deposited data

How the results depend on the processing

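The count of members that passed for Bf minus DMSO was 0 under each of the 14 alternatives, among them the replicate block, which leaves a mean difference as it is and changed no other call. At an unadjusted p under 0.05 (limma) the blocked count went from 0 to 4 without either replicate 1 array and to 1 without either replicate 2 array. The shares over all probe sets were not computed for these fits, so the counts are not read as a result about the members. For replicate number the count of 16 was 15 to 19 with 1 array left out (33.3% to 49.8% of all probe sets). It was 17 after quantile normalization (43.6%), 18 with equal array medians (49.5%) and 17 with trend and robust eBayes (46.2%). It was 16 with the filter (63.0%), and 11 of 19 without the AFFX probe sets (44.55%). At the threshold of 0.05 it was 16, where the share over all probe sets was not computed. It was 4 without both replicate 3 arrays (12.5%).

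Leaving out both replicate 3 arrays changed the other values too. Bf minus DMSO of the mean of ACTB and GAPDH became -0.024, the difference in the 3' to 5' gap 0.075 for actin and 0.024 for GAPDH, the median SD of the members 0.092 and the median of the 7 targets relative to ACTB and GAPDH 0.11. The sign of Bf minus DMSO also turned for ACTB (-0.052), B2M (0.069), HPRT1 (0.070), SDHA (0.045) and TFRC (0.13).

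With 1 array left out in turn, Bf minus DMSO of the mean of ACTB and GAPDH ran from -0.069 to 0.16, the gap difference from -0.48 to 0.47 for actin and from -0.29 to 0.29 for GAPDH, the median SD from 0.19 to 0.32, and the median of the targets from -0.29 to 0.16. By gene, Bf minus DMSO ran from -0.17 to 0.26 for ACTB, -0.0097 to 0.065 for GAPDH, -0.23 to 0.15 for B2M, -0.19 to 0.050 for HPRT1, -0.074 to 0.028 for PPIA, -0.31 to 0.23 for YWHAZ, -0.15 to 0.055 for SDHA, -0.13 to 0.27 for GUSB and -0.27 to 0.24 for TFRC. TBP alone kept its sign, at 0.059 to 0.15. The causes of these changes were not tested.

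The limits are those of 3 arrays a group, in which a permutation test cannot go below 0.1, and of a log scale whose base is taken from the method. Levels of different probe sets do not rank the abundance of their transcripts.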
